A study of Arabidopsis thaliana with 59 samples.

Results

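In Arabidopsis thaliana plants that lacked both the helicase SKI2 and the Dicer-like enzyme DCL4, some genes had far more 22-nt small RNAs than in the controls. At 43 of the 32375 genes with values, the level stayed within a set ratio to its controls when the exoribonuclease EIN5 was lost in place of SKI2. The 43 loci were chosen by 3 conditions on the mean level of 22-nt reads per gene. The level in ski2-2 dcl4-2 had to be at least 20 units, and it had to be at least 8 times the largest level in Col-0, dcl4-2, ski2-2 and ski2-2 dcl4-2 dcl2-1, with 1 unit added to each. The level in ein5-1 dcl4-2 had to stay under 4 times the largest level in Col-0, dcl4-2 and ein5-1, again with 1 unit added. Of the 32375 genes, 1409 met the first condition, 108 also met the second and 43 met all 3. These 7 genotypes chose the loci, so their levels, the need for DCL2 in the SKI2-deficient plants and the limited level in ein5-1 dcl4-2 are given as a description with no test. A unit is the scaled signal of the authors' table, which its headers call TPM, although the sums of its columns differ widely between genotypes.

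Small RNA came from the aerial parts of 20-day-old plants, which had spent 6 days on MS medium and then 14 days on soil, in 59 libraries. The genotypes were the wild type Col-0 and the single mutants dcl4-2, dcl2-1, ski2-2 and ein5-1. The decay mutations ski2-2 and ein5-1 were each joined with dcl4-2 and, in other plants, with dcl2-1. Each of the plants ski2-2 dcl4-2 and ein5-1 dcl4-2 was further joined with dcl2-1, with ago1-45 or with ago1-27, which gave 6 triple mutants. ski2-2 dcl4-2 ago1-27 had 3 libraries and each of the other 14 genotypes had 4. Every ago1 plant thus also carried dcl4-2 and 1 decay mutation, with no ago1 single mutant among the genotypes. The mutations are in every cell of the plant, and how many plants were pooled per library is not given in the sources used here. In such bulk tissue, fewer cells that make a small RNA and less of it per cell cannot be told apart. The tissue could not be checked against marker genes, because 22-nt reads do not report mRNA levels: the floral genes AP1, AP3, PI and SEP3 were at 0 units in ski2-2 dcl4-2, and AG was at 1.19 units.

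Plant cells degrade mRNA from the 3′ end by the exosome, which SKI2 and its partners feed with cytoplasmic RNA, and from the 5′ end by the exoribonuclease EIN5, also called XRN4. A microRNA loaded on AGO1 guides the cutting of its target mRNA, and the resulting fragments are substrates of these pathways. RNA that escapes decay can be copied into double-stranded RNA, which DCL4 cuts into 21-nt siRNAs and DCL2 into 22-nt siRNAs. The alleles ago1-45 and ago1-27 weaken AGO1 without abolishing it.

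The 43 loci fell into 3 classes. Of them, 14 are on lists of known targets of conserved microRNAs, 13 are annotated pseudogenes that share repeat sequence with each other, and the remaining 16 are other protein-coding genes. The microRNAs and their sites are shown because HAM1, HAM2, ARF17 and ARF10 carry the results on weakened AGO1 given further on. In the mature microRNAs, written 5′ to 3′ from RefSeq TAIR10.1, capitals mark the seed, bases 2 to 8.
ath-miR171a-3p: uGAUUGAGccgcgccaauauc
ath-miR160a-5p: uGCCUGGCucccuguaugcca
ath-miR166a-3p: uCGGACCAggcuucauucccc
ath-miR156j: uGACAGAAgagagagagcac
ath-miR167a-5p: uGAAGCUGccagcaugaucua

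HAM1 and HAM2 hold the same perfect complement of miR171 in their coding sequence. The 3 targets of miR160 differ from a perfect complement at 1 to 3 bases, and capitals mark the mismatched bases. Sites are written 5′ to 3′ on the strand of the mRNA.
HAM1 (chr2:18619128-18619148, minus strand) and HAM2 (chr3:22411544-22411564, minus strand): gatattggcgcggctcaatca
ARF17 (chr1:29274189-29274209, plus strand): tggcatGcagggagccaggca
ARF10 (chr2:12115741-12115761, plus strand): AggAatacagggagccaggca
ARF16 (chr4:14704141-14704161, minus strand): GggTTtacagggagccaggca
CNA (chr1:19412976-19413085, minus strand, across 2 exons): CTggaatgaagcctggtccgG
SPL2, SPL13A and SPL13B (chr5:17360758-17360777, chr5:20582738-20582757 and chr5:20616080-20616099, all minus strand): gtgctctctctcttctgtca
ARF8 (chr5:14633841-14633861, plus strand): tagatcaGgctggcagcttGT

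Counted from 1 at the 5′ end of the site, with the base of the perfect complement first, ARF17 differs by A7G, ARF10 by T1A and C4A, and ARF16 by T1G, C4T and A5T. CNA differs by G1C, G2T and A21G, and ARF8 by T8G, C20G and A21T. The other targets are NF-YA2 and NF-YA5, whose miR169 sites with 3 mismatches each lie in the 3′ UTR, NAC1 with a miR164 site, and GRF2. GRF2 had no ungapped site of at most 4 mismatches, and GRF genes are known to pair with miR396 with a bulge. Among 27444 coding genes, an ungapped site with at most 4 mismatches to any of 24 microRNA sequences of 8 families was present in 1.80%, and it was present in 14 of the 30 coding loci, of which 13 are listed targets. The 8 families are those with a listed target among the loci, so the share among the loci follows from that choice and nothing is read from it. For miR160 alone, 3 of 27444 genes had such a site, and they are ARF10, ARF16 and ARF17. One more match was found outside the lists: EMB1030 holds a stretch with 4 mismatches to miR396, and 98 of the 27444 genes held a stretch with at most 4 mismatches to that family. A match of letters is not evidence that a site is cut.

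In ski2-2 dcl4-2 the authors' means of the 43 loci added up to 43385 units, 4.48% of the signal of all genes in that genotype. In each of the other 14 genotypes they added up to between 535 and 1623 units. Per kilobase of exon, ski2-2 dcl4-2 had the highest level at GUN5, the magnesium chelatase subunit of chlorophyll synthesis (2813 units per kb), the repeat pseudogene AT3G43862 (1813 units per kb) and EMB1030, an alanyl-tRNA synthetase (1373 units per kb). ARF10 (683 units per kb) and HAM1 (632 units per kb) were the highest of the microRNA targets, and LTI65 was the lowest of all 43 at 9.45 units per kb. The median exonic length of the 30 coding loci was 2818 bases, against 1516.5 over 27444 coding genes and 1857 over the 527 coding genes with at least 20 units in ski2-2 dcl4-2. The part of length in the choice was not tested.

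**Figure D1:**
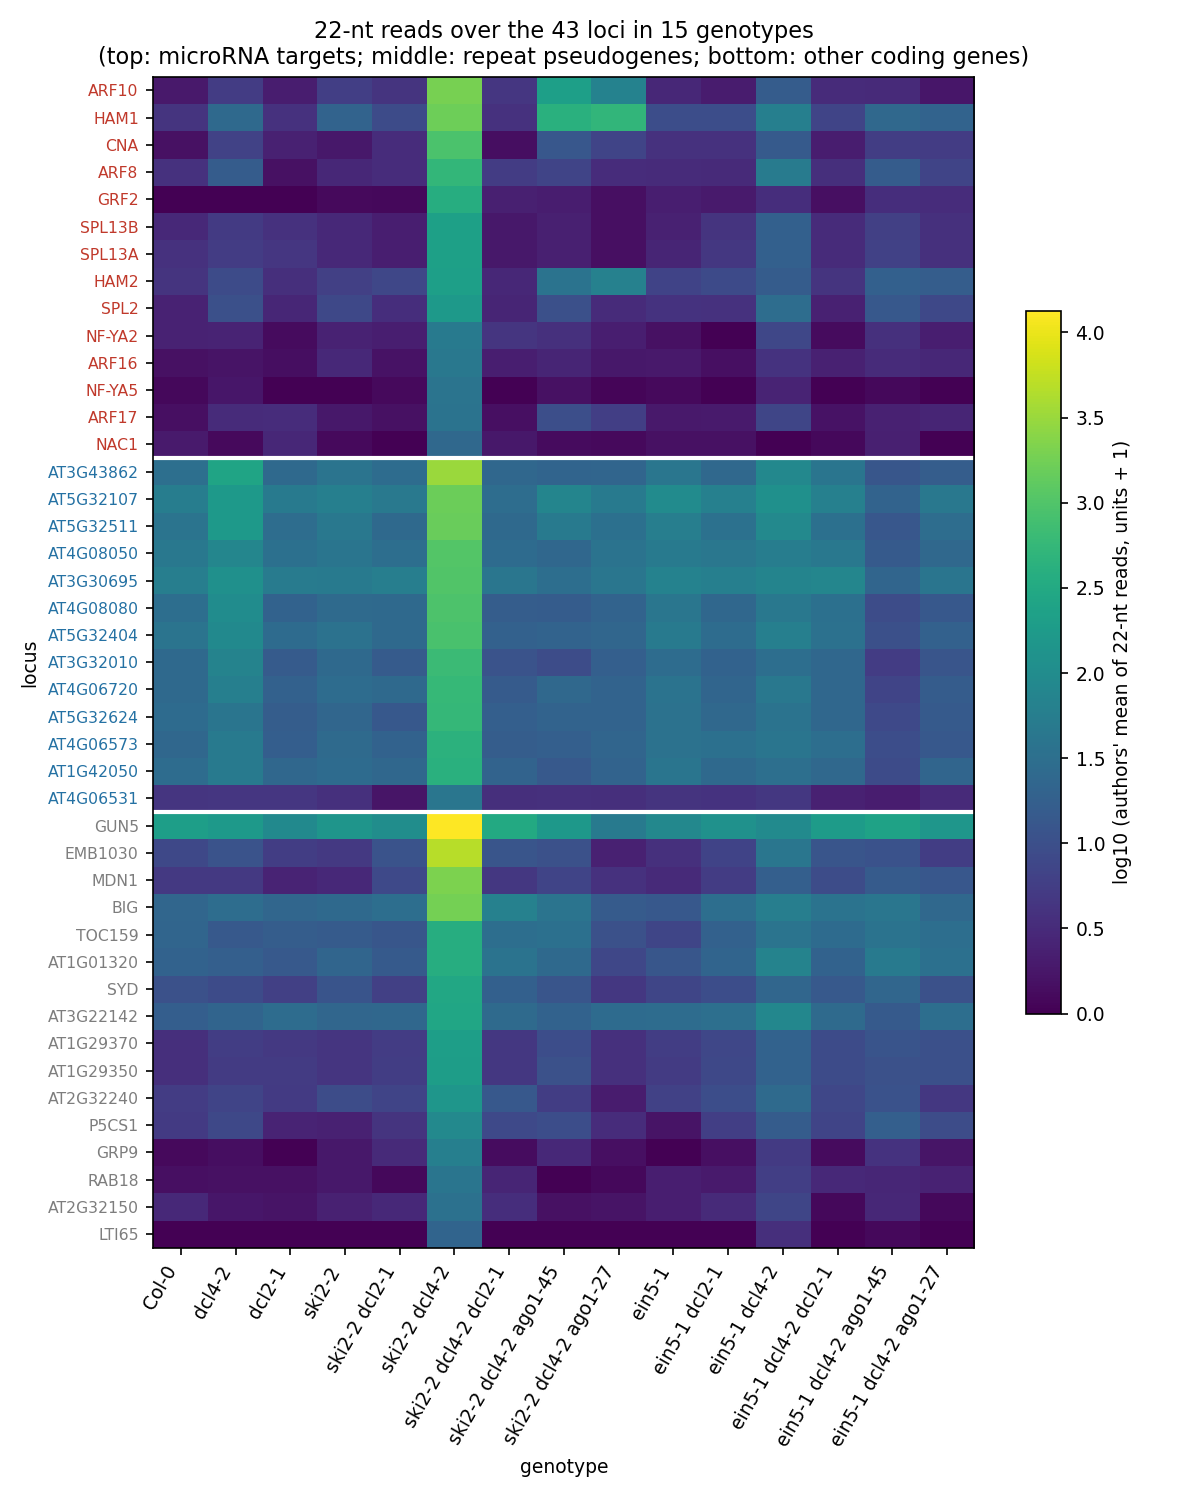
Authors' mean of 22-nt reads over each of the 43 loci (rows, by class) in each of the 15 genotypes (columns), as log10 of units plus 1. The column of ski2-2 dcl4-2 is bright throughout; in the ago1 columns beside it HAM1, HAM2 and ARF10 stay brightest among the microRNA targets, and the ein5-1 columns are dark for most targets.

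HAM1 (chr2:18617862-18620451) and HAM2 (chr3:22410240-22412663) encode GRAS-family transcription regulators that keep shoot meristems indeterminate. The authors' mean of HAM1 was 1637 units in ski2-2 dcl4-2. It was 3.21 in the wild type, 19.3 in ski2-2, 25.2 in dcl4-2, 2.88 in ski2-2 dcl4-2 dcl2-1 and 60.5 in ein5-1 dcl4-2. That of HAM2 was 211 units in ski2-2 dcl4-2, and at most 7.83 in Col-0, dcl4-2, ski2-2 and ski2-2 dcl4-2 dcl2-1, with 14.9, 15.9, 10.9 and 18.2 in the libraries of ein5-1 dcl4-2. Both were thus by far the highest in ski2-2 dcl4-2 among these genotypes, but they also rose with EIN5 and DCL4 lost. In the authors' DESeq2 values, ein5-1 dcl4-2 was above Col-0 by log2 3.95 at HAM1 (adjusted p = 2.04e-16). At HAM2 it was above by 1.95 (DESeq2 adjusted p = 0.00427). These genotypes chose the loci, so this is description only. The third gene of the family, HAM3, was outside the 43 loci and had the opposite order, with an authors' mean of 18.3 units in ski2-2 dcl4-2 and 175 in ein5-1 dcl4-2. HAM1 and HAM2 share 20 of their 22-base words, 0.832% of the smaller set, so few reads could be counted at both.

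ARF10 (chr2:12113889-12116957), ARF16 (chr4:14703065-14706354) and ARF17 (chr1:29272074-29275507) encode auxin response factors that repress auxin-responsive genes. ARF10 had an authors' mean of 1913 units in ski2-2 dcl4-2, 14.8 in ein5-1 dcl4-2 and at most 4.84 in Col-0, dcl4-2, ski2-2 and ski2-2 dcl4-2 dcl2-1. In the 4 libraries of ski2-2 dcl4-2, which are named A to D in order of what 1 read is worth and not by replicate number, ARF16 had 35.5, 50.1, 45.2 and 47.4 units. ARF17 had 45.5, 39.0, 36.5 and 23.7 units in them. In ein5-1 dcl4-2 the libraries of ARF17 held 8.92, 4.78, 1.82 and 9.10 units and those of ARF16 held 7.44, 1.59, 0 and 3.03. All 4 ski2-2 dcl4-2 libraries were above all 4 of ein5-1 dcl4-2 for both genes. Both genotypes entered the choice of loci, so nothing is read from this separation. Single libraries of ski2-2 dcl4-2 were known for 11 of the 43 loci only, so for the higher ones the mean is all there is.

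CNA (chr1:19409688-19414764), a homeodomain-leucine zipper gene of organ polarity and meristems, had an authors' mean of 894 units in ski2-2 dcl4-2, 0.400 in ski2-2 dcl4-2 dcl2-1 and 13.6 in ein5-1 dcl4-2. It was the 1 of 5 genes of its miR166 family inside the limit set on ein5-1 dcl4-2. The other 4 passed that limit: PHB had authors' means of 56875 units in ski2-2 dcl4-2 and 74.3 in ein5-1 dcl4-2, REV had 51142 and 41.5, PHV had 15586 and 38.2, and ATHB8 had 26908 and 9.30. Their levels in ein5-1 dcl4-2 were far below those in ski2-2 dcl4-2 too, and it is the ratio to their low controls that left them out. In all, 95 listed microRNA targets have values, 35 had at least 20 units in ski2-2 dcl4-2, and 28 of these were also at least 8 times the controls. The limit on ein5-1 dcl4-2 parted these 28 into 14 inside and 14 outside.

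Other targets were inside the limit. ARF8, which promotes auxin response and is a target of miR167, had an authors' mean of 535 units in ski2-2 dcl4-2 and 51.7 in ein5-1 dcl4-2. GRF2, a growth-regulating factor, had 369 and 2.42 units. The squamosa-promoter binding genes of the miR156 family, which time the change from juvenile to adult growth, were represented by SPL2 with 164 units and by SPL13A and SPL13B with 222 units each, against 28.6 and 17.7 in ein5-1 dcl4-2. All 2478 of the 22-base words of SPL13B occur among the 2618 of SPL13A, so a read of the shared part cannot be told apart between these 2 genes. The nuclear factor Y subunits NF-YA2 and NF-YA5 had 43.3, 51.5, 58.4 and 33.2 units and 35.5, 40.4, 49.6 and 23.7 units in the 4 ski2-2 dcl4-2 libraries. NAC1, a transcription factor of lateral root formation, had 37.8, 20.9, 11.7 and 23.7 units, the widest relative spread of these, and 0 units in all 4 libraries of ein5-1 dcl4-2. At 3 reads a library, such a 0 still allows from 4.46 to 9.10 units in these 4 libraries. Of the 22-base words of NAC1, 34.5% occur in other genes, mostly the overlapping AT1G08087 and AT1G56000. For NF-YA5 the share is 30.0%, mostly in the overlapping AT1G07943 and AT1G54150. A read of such a part cannot be told apart between the overlapping genes.

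The 13 pseudogenes are linked by shared sequence, though not evenly. Each shared 22-base words with each of the 12 others, and 22.8 to 75.0% of the words of a pseudogene occurred in another of the 13. By pairs, AT5G32107, AT5G32511, AT5G32624 and AT4G06720 shared 12.7 to 42.9% of the smaller set with each other. With any other of the 13 they shared at most 2.16%. The rest shared 6.89 to 61.4% with each other. A read from 1 of the 13 can therefore be counted at several, and the 13 values are not independent. In ski2-2 dcl4-2 their authors' means ran from 41.3 units at AT4G06531 to 3166 at AT3G43862, with a median of 865, and their sum was 12833 units. They already had reads in the controls: 12 of the 13 had between 39.1 and 256 units in dcl4-2, and the sum was 1246 units in dcl4-2, 423 in Col-0, 320 in dcl2-1 and 256 in ski2-2 dcl4-2 dcl2-1. Another 160 genes, 159 of them pseudogenes, share at least 100 of these 22-base words with the 13. Of these, 96 had at least 20 units in ski2-2 dcl4-2 and 37 were at least 4 times their controls, with a highest mean of 1912 units.

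Among the 16 other coding genes, GUN5 (chr5:4387307-4392429) had an authors' mean of 13371 units in ski2-2 dcl4-2. The wild type had 206, ski2-2 141, dcl4-2 171, ski2-2 dcl4-2 dcl2-1 316 and ein5-1 dcl4-2 93.3 units, so GUN5 was lower with EIN5 and DCL4 lost than in wild type. EMB1030 had 4845 units in ski2-2 dcl4-2 and 41.4 in ein5-1 dcl4-2. MDN1, the midasin ATPase of ribosome assembly, had 2052 and 16.5 units, and BIG, a very large protein needed for auxin transport, had 1826 and 57.8. AT1G01320, a tetratricopeptide-repeat protein, had 368 and 69.7 units.

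Further coding genes include the chloroplast import receptor TOC159, with an authors' mean of 368 units in ski2-2 dcl4-2, the chromatin remodeller SYD 302, AT3G22142 273, AT1G29370 207, AT1G29350 201 and AT2G32240 145. AT1G29370 and AT1G29350 share 79.6% of the 22-base words of the latter, so their values are not independent. All 22-base words of AT3G22142 occur in the overlapping AT3G22125, for which no value was used here, and 20.3% of those of TOC159 occur in other genes, mostly the overlapping AT4G02520, which had 5.40 units in ski2-2 dcl4-2. The proline synthesis gene P5CS1 had 70.0, 89.1, 108.0 and 80.6 units in the 4 libraries of ski2-2 dcl4-2 and 8.92, 15.9, 14.5 and 21.2 in ein5-1 dcl4-2. The glycine-rich protein gene GRP9 had a mean of 58.6 units, the dehydrin gene RAB18 38.4, AT2G32150 33.8 and the water-stress gene LTI65 20.5. LTI65 was at 0 units in 12 of the 15 genotypes and had 2.63 in ein5-1 dcl4-2.

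The loci nearest to each threshold were these. For the minimum of 20 units, LTI65 with 20.5, NAC1 with 23.5 and AT2G32150 with 33.8 units were just inside, and SPL9 with 18.7, JAL33 with 18.6 and SPL11 with 17.9 were just outside. For the 8-fold condition, AT1G42050 at 8.64, AT3G30695 at 8.76 and AT5G32511 at 8.97 were inside, and AT5G32228 at 7.69, AT5G32197 at 7.66 and AT5G31702 at 7.64 were outside. For the limit of 4 on ein5-1 dcl4-2, AT1G29350 at 3.82, AT2G32240 at 3.79 and EMB1030 at 3.70 were inside, and ATHB8 at 4.19, NF-YA3 at 4.26 and AT2G05510 at 4.39 were outside.

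The ein5-1 dcl4-2 values of the loci, which the rule limits, are given as a description. In the authors' deposited table, 21 of the 43 loci were higher in ein5-1 dcl4-2 than in Col-0 at adjusted p below 0.05, where 21.1% of all genes tested were, and GUN5 was lower, where 4.44% were. In the authors' deposited table, 17 were higher and 11 lower in ein5-1 dcl4-2 than in dcl4-2, against 19.7% and 4.78% of all genes. The authors' deposited table calls all 43 higher in ski2-2 dcl4-2 than in Col-0, ski2-2, dcl4-2 and ski2-2 dcl4-2 dcl2-1, where 8.13, 7.28, 10.4 and 7.3% of genes were called higher. These comparisons share the genotypes that chose the loci, and nothing is read from the counts. The sum over the 43 loci was 4.48% of the signal of all genes with SKI2 and DCL4 lost and 0.0763% with EIN5 and DCL4 lost.

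The ago1 alleles did not enter the choice of loci. When AGO1 was weakened in ski2-2 dcl4-2, most of the 22-nt reads over the 43 loci were lost, and with ago1-45 HAM1, ARF17, HAM2 and ARF10 kept the largest percentages. With ago1-27, HAM1, HAM2 and ARF17 did. The median level left was 3.22% of the authors' mean in ski2-2 dcl4-2 with ago1-45 and 1.9% with ago1-27. Under 10% was left at 39 loci with ago1-45 and at 40 with ago1-27. The sum over the 43 loci was 1347 units with ago1-45 and 1113 with ago1-27, 0.947% and 0.735% of the signal of all genes. The signal of all genes was also lower in these plants than in ski2-2 dcl4-2. The share of all genes left with under 10% was not computed, so nothing particular to these loci is read from the counts. HAM1 kept 25.3% with ago1-45 and 31.8% with ago1-27, HAM2 17.0% and 30.8%, ARF17 24.7% and 13.6%, and ARF10 10.9% and 3.42%. ARF17 started from only 36.2 units, so its percentages stand for 8.93 and 4.93 units, against 2.35 in dcl2-1. Reads already present in the controls were not subtracted from any percentage. By class, the median left with ago1-45 and ago1-27 was 2.55% and 1.2% for the microRNA targets, 3.15% and 3.33% for the pseudogenes and 3.28% and 1.02% for the other coding genes. Because the loci were chosen for a high value in ski2-2 dcl4-2, the percentages start from a selected level and carry no test.

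**Figure D2:**
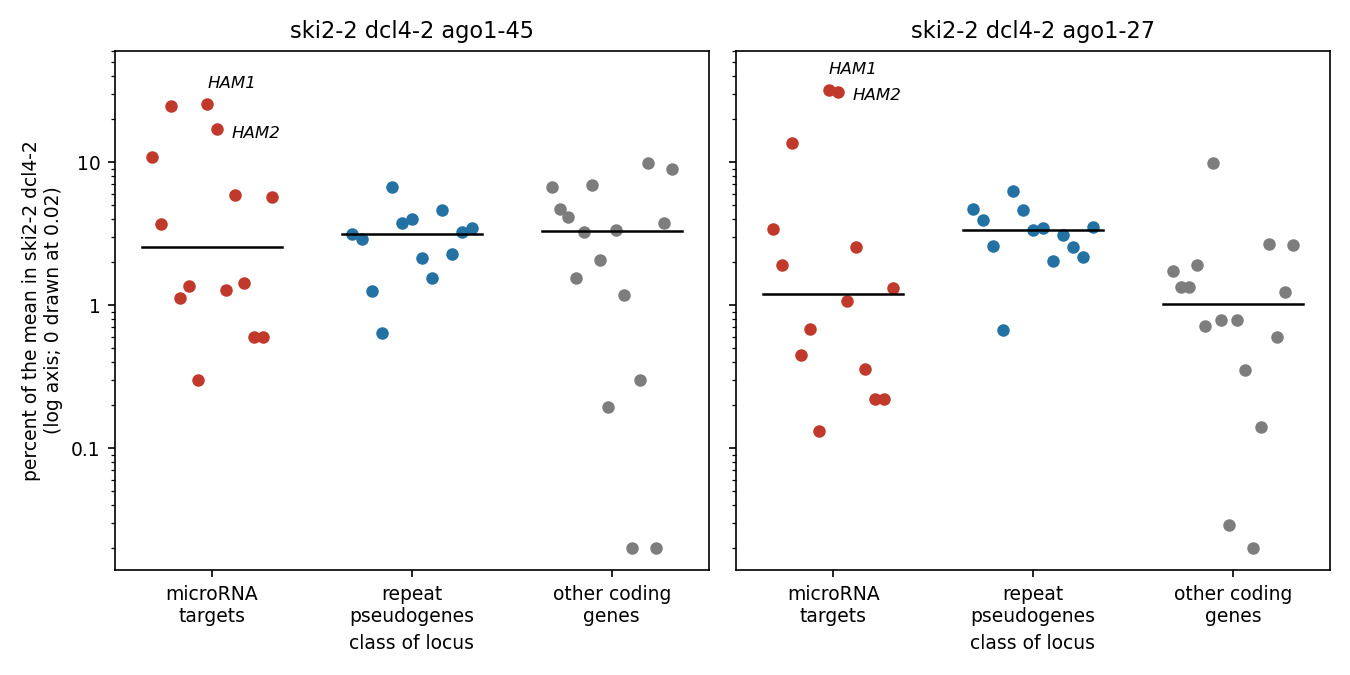
Level of each of the 43 loci in ski2-2 dcl4-2 ago1-45 (left) and ski2-2 dcl4-2 ago1-27 (right) as a percentage of its authors' mean in ski2-2 dcl4-2, by class, on a log axis with 0 drawn at 0.02; lines are class medians. HAM1 and HAM2 are among the few loci above 10% in both panels.

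Whether these remnants differ from the background of the assay was asked by comparison with dcl2-1, which lacks the 22-nt-producing enzyme and played no part in the choice. The 4 libraries of dcl2-1 had 1.78, 0.894, 6.27 and 2.58 units of HAM1, those of ski2-2 dcl4-2 ago1-45 had 427, 387, 445 and 396, and the 3 of ski2-2 dcl4-2 ago1-27 had 648, 419 and 494. Every ago1 library was above every dcl2-1 library by a wide margin. HAM1 was higher than in dcl2-1 by 6.92 ± 0.20 (log2, SE; limma adjusted p = 7.56e-252) with ago1-45 and by 7.23 ± 0.26 (adjusted p = 5.84e-29) with ago1-27. The limma fits here and below took log2 of library units plus 1 over all genes tested, the adjusted p follows Benjamini and Hochberg, and a call is an adjusted p below 0.05. The p-values measure only the spread between libraries. The fit against dcl2-1 with ago1-45 set 1 spread for all genes of like level, with infinite prior degrees of freedom, so its smallest p-values are smaller than 8 libraries of 1 gene could give. Over the other settings tried, the adjusted p of HAM1 was at most 4.07e-12 in it.

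ARF10 had 0.888, 0, 2.51 and 1.29 units in the dcl2-1 libraries, 211, 189, 232 and 204 in those with ski2-2 dcl4-2 ago1-45 and 140, 23.0 and 33.1 in those with ski2-2 dcl4-2 ago1-27. With ago1-27, library A was several times the other 2, and all 3 were still above dcl2-1. Differences from dcl2-1 were 6.73 ± 0.27 (limma adjusted p = 2.06e-129) and 4.63 ± 0.44 (adjusted p = 7.88e-12). HAM2 had 4.44, 0.894, 1.25 and 3.87 units in dcl2-1, 43.6, 25.1, 39.7 and 35.01 with ago1-45 and 72.3, 64.5 and 58.9 with ago1-27, with no overlap. It was higher than dcl2-1 by 3.47 ± 0.37 (limma adjusted p = 4.15e-19) and 4.34 ± 0.34 (adjusted p = 6.87e-15).

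In ski2-2 dcl4-2 ago1-45, 16 of the 37 loci tested were higher than in dcl2-1, where 8.0% of all genes were, and 2 were lower, where 18.0% were. The median difference was 0.81 over the 37 loci and 0.03 over all genes. The 16 were 7 of 12 microRNA targets tested, 7 of 12 other coding genes and 2 of 13 pseudogenes. Among the other coding genes, AT1G01320, MDN1, SYD and BIG lost their calls on leaving out single libraries. Their limma adjusted p then reached 0.0678, 0.0845, 0.111 and 0.0935. GUN5 lost its call with quantile normalization (limma adjusted p = 0.0944). Of the 2 lower, AT1G42050 lost its call on leaving out single libraries (up to 0.21) and AT3G30695 with quantile normalization (0.115). Besides HAM1, ARF10 and HAM2, the targets were CNA (2.31 ± 0.50), ARF8 (2.15 ± 0.59), SPL2 (2.07 ± 0.50) and ARF17 (1.79 ± 0.50), all with limma adjusted p of at most 0.00258. Unlike these plants, dcl2-1 keeps SKI2 and DCL4. In ski2-2 dcl4-2 dcl2-1 the authors' means of GUN5, BIG, AT1G01320 and SYD were 316, 63.7, 35.8 and 17.8 units. They were lower with ago1-45, at 156, 37.6, 24.5 and 11.4, while MDN1, P5CS1 and TOC159 were higher with ago1-45. No pseudogene with ago1-45 was above all of Col-0, dcl4-2, ski2-2 and ski2-2 dcl4-2 dcl2-1. Whether DCL2 made the reads at these loci was not tested. In ski2-2 dcl4-2 ago1-27, 4 of 35 loci were higher than in dcl2-1, where 2.77% of all genes were, and 1 was lower, where 5.87% were. The 4 were HAM1, ARF10, HAM2 and CNA, and the 1 lower was GUN5, by 0.92 ± 0.15 (limma adjusted p = 5.88e-06). CNA with ago1-27 (1.58 ± 0.50, limma adjusted p = 0.0323) rested on single libraries, since leaving out dcl2-1 library A or B or any library of ski2-2 dcl4-2 ago1-27 ended its call, with adjusted p from 0.053 (without dcl2-1 library B) to 0.239 (without ski2-2 dcl4-2 ago1-27 library A). Of the 13 pseudogenes, 9 were called in neither direction against dcl2-1 with ago1-45, and none of the 13 was called with ago1-27.

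**Figure D3:**
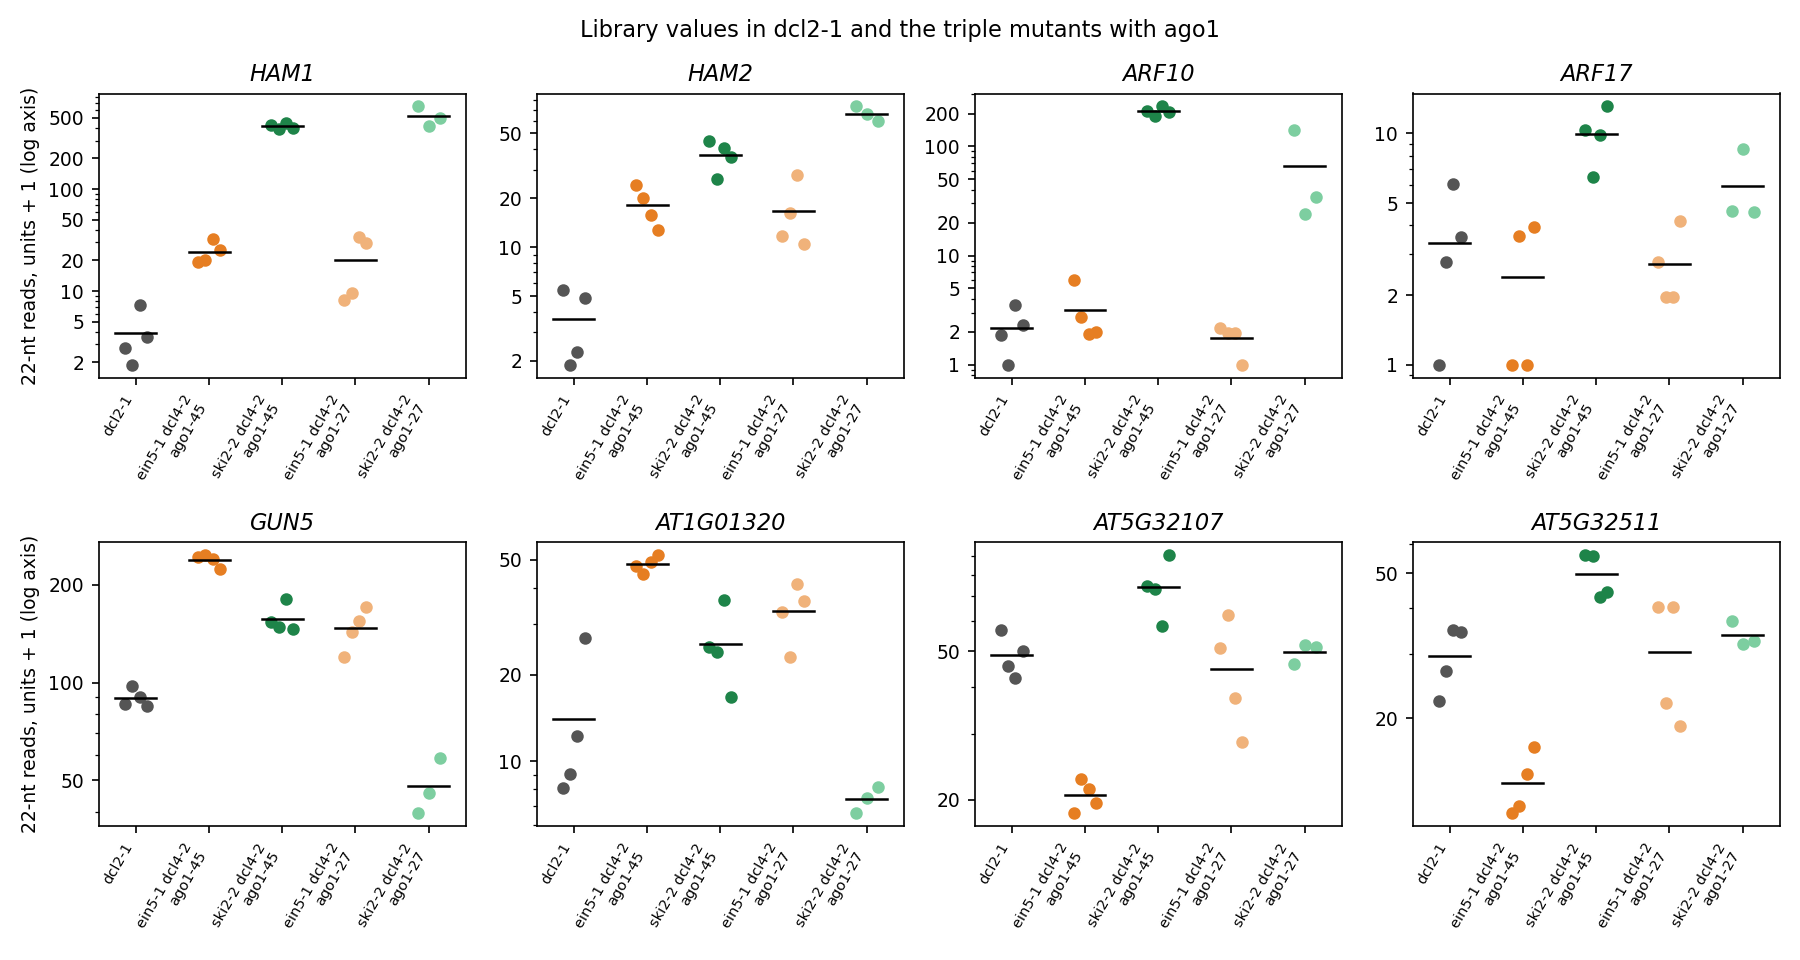
Library values of 8 loci in dcl2-1 and the 4 triple mutants with ago1, as 22-nt reads in units plus 1 on log axes; points are libraries and lines are means. The ski2-2 libraries lie above the ein5-1 libraries with the same ago1 allele for HAM1, HAM2 and ARF10, and below them for GUN5 and AT1G01320.

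The direct comparison of SKI2 loss with EIN5 loss, both with DCL4 lost and AGO1 weakened, used libraries that did not choose the loci. With SKI2 lost, HAM1, HAM2 and ARF10 were higher in both ago1 backgrounds, while GUN5 and AT1G01320 were lower in both. With ago1-45, 11 of 39 loci tested were higher, where 3.82% of all genes were, and 8 were lower, where 12.5% were. The median difference was 0.01 over the 39 loci and -0.35 over all genes. With ago1-27, 3 of 37 were higher, where 3.44% of all genes were, and 8 were lower, where 23.9% were, with medians of -0.05 and -0.62. The 3 that were higher with ago1-27 were HAM1, ARF10 and HAM2.

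HAM1 had 18.2, 19.2, 31.6 and 24.5 units in the libraries of ein5-1 dcl4-2 ago1-45 and 7.13, 8.61, 32.6 and 28.5 in those of ein5-1 dcl4-2 ago1-27. None reached the lowest ski2-2 value of 387 units. The difference was 4.12 ± 0.13 (limma adjusted p = 6.38e-62) with ago1-45 and 4.94 ± 0.33 (adjusted p = 1.41e-12) with ago1-27. ARF10 had 4.98, 1.74, 0.929 and 0.981 units in ein5-1 dcl4-2 ago1-45 and 1.19, 0.957, 0.959 and 0 in ein5-1 dcl4-2 ago1-27. These libraries overlapped with those of dcl2-1. The differences of the ski2-2 plants from them were 6.22 ± 0.24 (limma adjusted p = 5.28e-50) and 4.84 ± 0.45 (adjusted p = 1.76e-09). Without the high library A of ski2-2 dcl4-2 ago1-27, the second value was 4.07 and kept its call.

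HAM2 had 23.2, 19.2, 14.9 and 11.8 units in ein5-1 dcl4-2 ago1-45 and 10.7, 15.3, 26.8 and 9.52 in ein5-1 dcl4-2 ago1-27. All were below the ski2-2 libraries with the same allele, by 1.03 ± 0.23 (limma adjusted p = 0.000438) and 2.10 ± 0.28 (adjusted p = 1.39e-06). ARF17 had 0, 2.62, 0 and 2.94 units in ein5-1 dcl4-2 ago1-45 and 9.35, 5.46, 8.82 and 12.1 in ski2-2 dcl4-2 ago1-45, a difference of 2.31 ± 0.50 (limma adjusted p = 0.000173). With ago1-27 it was 1.78, 0.957, 0.959 and 3.17 against 3.63, 7.56 and 3.58 units. These 7 libraries did not overlap, but the difference of 1.13 ± 0.46 missed the threshold (limma adjusted p = 0.0617). Whether the difference of ARF17 depends on the ago1 allele was tested by the interaction, which was 1.18 ± 0.70 (limma adjusted p = 0.477).

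CNA had 1.66, 3.49, 5.57 and 7.85 units in ein5-1 dcl4-2 ago1-45 and 4.16, 19.7, 8.82 and 15.7 in ski2-2 dcl4-2 ago1-45. The libraries overlapped, and the difference of 1.16 ± 0.40 (limma adjusted p = 0.0306) lost its call when any of 5 libraries was left out (A or B of the ein5-1 plants, B, C or D of the ski2-2 plants), with adjusted p from 0.0527 to 0.187. With ago1-27 CNA differed by 0.46 ± 0.40 (limma adjusted p = 0.369). Other microRNA targets were called the opposite way, and of these only ARF8 kept its call in every setting tried. ARF8 was lower with SKI2 lost than with EIN5 lost in the ago1-45 plants, by -1.29 ± 0.35 (limma adjusted p = 0.00466), and so were SPL13A and SPL13B, which share most of their sequence and are not independent, by -1.61 ± 0.52 and -1.57 ± 0.52 (adjusted p = 0.0202 and 0.0249). The SPL13A and SPL13B calls ended on leaving out library D of the ski2-2 plants or, of the ein5-1 plants, library B for SPL13A and any library for SPL13B, at adjusted p of up to 0.0802 and 0.0899. In the ago1-27 plants SPL2 was lower by -1.18 ± 0.42 (limma adjusted p = 0.035), a call that ended on leaving out library C or D of the ein5-1 plants or any of the ski2-2 plants, with adjusted p up to 0.107. Quantile normalization ended the calls of SPL13A, SPL13B and SPL2 (limma adjusted p = 0.129, 0.153 and 0.415), and so did pseudocount 0.1. The mean of SPL13A and of SPL13B in ski2-2 dcl4-2 ago1-45 was 1.33 units, under the 3-read floor of 3.12 to 3.62 units. Over all genes the median was -0.35 with ago1-45 and -0.62 with ago1-27, so relative to all genes these differences are smaller.

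**Figure D4:**
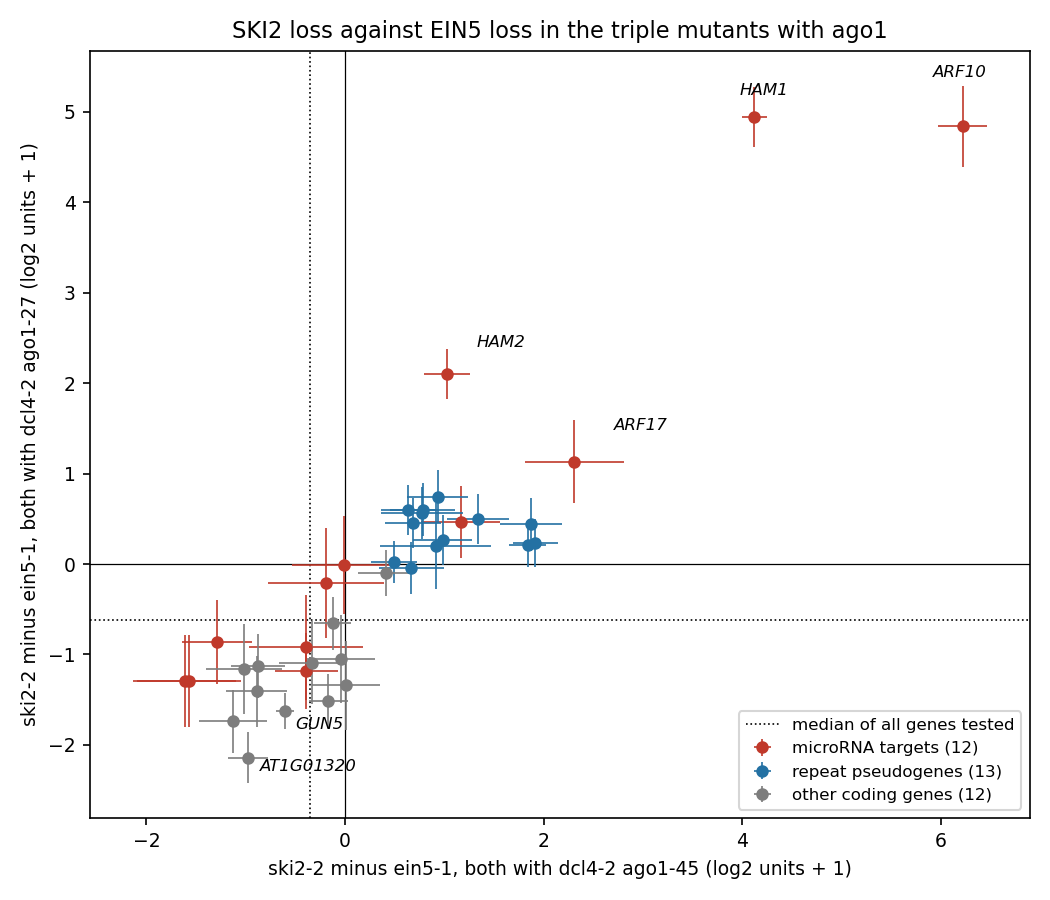
Difference between SKI2 loss and EIN5 loss (log2 of units plus 1, with SE) with dcl4-2 ago1-45 (horizontal) and dcl4-2 ago1-27 (vertical) for the 37 loci tested in both; dotted lines are the medians of all genes tested. ARF10 and HAM1 lie far to the upper right, the 13 pseudogenes right of 0, and most other coding genes at lower left.

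Of the 13 pseudogenes, 6 were higher in ski2-2 dcl4-2 ago1-45 than in ein5-1 dcl4-2 ago1-45, where 3.82% of all genes were, and none lower; with ago1-27 none of 13 was called in either direction. AT5G32107 had 17.4, 21.8, 20.4 and 18.6 units in ein5-1 dcl4-2 ago1-45 and 73.8, 72.1, 57.3 and 89.3 in ski2-2 dcl4-2 ago1-45, without overlap. The difference was 1.84 ± 0.19 (limma adjusted p = 4.84e-15). AT5G32511 (1.92 ± 0.23), AT4G06720 (1.87 ± 0.31) and AT5G32624 (1.33 ± 0.31) were called in every setting tried, while the calls of AT5G32404 (0.98 ± 0.30) and AT4G06573 (0.93 ± 0.31) ended on leaving out single libraries, at limma adjusted p of up to 0.0753 and 0.0685. For AT5G32404 these were library D of the ein5-1 plants and A and D of the ski2-2 plants, and for AT4G06573 library C of each. AT5G32107, AT5G32511, AT4G06720 and AT5G32624 are the pseudogenes that share far more sequence with each other than with the rest of the 13. Their values are thus not independent. AT5G32404 and AT4G06573 belong to the rest and share 28.6% of the 22-base words of the smaller set. The difference came with a low level in the ein5-1 plants: 12 of the 13 were lower in ein5-1 dcl4-2 ago1-45 than in dcl2-1, where 23.0% of all genes were, by up to 1.57 ± 0.38 at AT3G32010 (limma adjusted p = 0.00102).

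Of the 16 other coding genes, none of those tested in the ago1 plants was called higher with SKI2 lost than with EIN5 lost. Of the 14 tested with ago1-45, 5 were lower, where 12.5% of all genes were, and of the 12 tested with ago1-27, 7 were lower, where 23.9% of all genes were. GUN5 had 242, 246, 239 and 223 units in ein5-1 dcl4-2 ago1-45 and 153, 148, 180 and 145 in ski2-2 dcl4-2 ago1-45. With ago1-27 it had 119, 142, 153 and 170 units with EIN5 lost and 38.6, 44.6 and 57.7 with SKI2 lost. In both backgrounds the SKI2-deficient libraries were the lower ones without overlap, by -0.61 ± 0.09 (limma adjusted p = 2.53e-08) and -1.62 ± 0.20 (adjusted p = 3.36e-07). Without ago1 the order was the other way, with 13371 units of GUN5 in ski2-2 dcl4-2 and 93.3 in ein5-1 dcl4-2. The rule chose GUN5 by these levels, so nothing is read from the change of order.

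AT1G01320 had 46.5, 43.6, 48.3 and 51.0 units in ein5-1 dcl4-2 ago1-45 and 23.9, 23.0, 35.3 and 15.7 in ski2-2 dcl4-2 ago1-45, a difference of -0.98 ± 0.20 (limma adjusted p = 0.000101). With ago1-27 it had 32.1, 22.0, 40.3 and 34.9 against 5.62, 6.48 and 7.17 units, a difference of -2.14 ± 0.28 (limma adjusted p = 9.83e-07). Neither pair of groups overlapped. MDN1, SYD and P5CS1 were also lower in both backgrounds. TOC159 (-1.52 ± 0.30, limma adjusted p = 0.000348) and EMB1030 (-1.34 ± 0.49, adjusted p = 0.0429, with overlap) were called lower with ago1-27 and not with ago1-45. For TOC159 the interaction given below tests that difference, and for EMB1030 the interaction was not called. With ago1-45 the calls of MDN1, SYD and P5CS1 ended on leaving out single libraries, at adjusted p of up to 0.0607, 0.0716 and 0.106. These were library C of each genotype for MDN1, C or D of the ein5-1 and C of the ski2-2 plants for SYD, and A or B of the ein5-1 and B or C of the ski2-2 plants for P5CS1. With ago1-27 the calls of SYD (library C of the ein5-1 plants or any of the ski2-2 plants) and EMB1030 (A, C or D and B or C) ended, at up to 0.082 and 0.291. Quantile normalization ended the calls of MDN1, SYD and P5CS1 with ago1-45 (limma adjusted p = 0.054, 0.066 and 0.114). With ago1-27 it ended those of SYD, P5CS1 and EMB1030 (limma adjusted p = 0.23, 0.179 and 0.357). Since the median over all genes was -0.35 with ago1-45 and -0.62 with ago1-27, the differences of these genes relative to all genes are smaller by as much.

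Between the ago1 alleles in ski2-2 dcl4-2, 14 of 35 loci were higher with ago1-45, where 21.1% of all genes were, and 4 were lower, where 23.9% were. The 14 comprised 10 of 13 other coding genes tested, ARF10 and SPL2, and the pseudogenes AT5G32107 and AT5G32511. AT5G32511 lost its call without library A of ski2-2 dcl4-2 ago1-45 or library B or C of ski2-2 dcl4-2 ago1-27, at adjusted p up to 0.071. ARF10 was higher by 2.10 ± 0.29 (limma adjusted p = 8.51e-07) and GUN5 by 1.73 ± 0.15 (adjusted p = 6.06e-11). HAM2 was lower with ago1-45, by -0.87 ± 0.19 (limma adjusted p = 0.000633), and HAM1 by -0.31 ± 0.09 (adjusted p = 0.00895), with libraries of HAM1 that overlap. The HAM1 difference lost its call without library A of ski2-2 dcl4-2 ago1-27 (adjusted p = 0.206), and it turned to 0.49 when libraries were scaled to microRNA loci, where that of HAM2 was -0.08. The order of HAM1 between the alleles thus depends on the scale. That of HAM2 did not turn, but its difference was no longer called on that scale (limma adjusted p = 0.761).

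Between the alleles in ein5-1 dcl4-2, 6 of 40 loci were higher with ago1-45, where 6.45% of all genes were, and 8 were lower, where 13.6% were. The 8 were 7 pseudogenes and AT3G22142, and with microRNA loci as the scale none of the 8 was called. The interaction asks whether the difference between the alleles depends on which decay factor is lost. It was called, and above 0, for 4 of 38 loci, where 2.69% of all genes were called above 0, and below 0 for none, where 0.572% were. GUN5 (1.02 ± 0.21, limma adjusted p = 0.00062), AT5G32107 (1.63 ± 0.32, adjusted p = 0.000194) and AT5G32511 (1.68 ± 0.36, adjusted p = 0.000959) were called in every setting. TOC159 (1.35 ± 0.37, limma adjusted p = 0.0188) lost its call without library C of ein5-1 dcl4-2 ago1-27 (adjusted p = 0.071), library A of ski2-2 dcl4-2 ago1-45 (0.0507) or library B of ski2-2 dcl4-2 ago1-27 (0.124). HAM1 and ARF10 were not called, so a different response of these 2 to the alleles was not shown.

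Loss of EIN5 and DCL4 with weak AGO1 was also set against dcl2-1. In ein5-1 dcl4-2 ago1-45, 18 of 41 loci were higher, where 32.9% of all genes were, and 13 were lower, where 23.0% were. In ein5-1 dcl4-2 ago1-27, 9 of 36 were higher, where 13.1% of all genes were, and none was lower, where 4.35% were. ARF8 was the highest of the targets in the first, at 3.44 ± 0.46 above dcl2-1 (limma adjusted p = 3.01e-07), followed by HAM1 at 2.80 ± 0.39 (adjusted p = 6.2e-07), SPL2 at 2.46 ± 0.45 and HAM2 at 2.44 ± 0.41. ARF10 differed from dcl2-1 by 0.51 ± 0.54 with ago1-45 (limma adjusted p = 0.406), and with ago1-27 it was under the minimum mean and was not tested.

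Genotypes without DCL2 were also compared with one another, and the calls at these loci were near the shares over all genes. Against dcl2-1, none of 35 loci was called higher (0.194% of all genes were) or lower (0.123% were) in ski2-2 dcl2-1 by limma, and 6 were higher and 1 lower at an unadjusted p below 0.05. In ein5-1 dcl4-2 dcl2-1 against ein5-1 dcl2-1, which differ in DCL4, none of 34 was called higher (0.662%) or lower (3.39%), and 3 were higher at an unadjusted p below 0.05. Between ski2-2 dcl2-1 and ein5-1 dcl2-1, none of 34 was higher (0.782%) and 2 were lower (5.88%), the pseudogenes AT5G32624 (-0.94 ± 0.29, limma adjusted p = 0.0279, with overlap) and AT4G06573 (-0.77 ± 0.24, adjusted p = 0.0299). Leaving out library A, B or D of ein5-1 dcl2-1 or A, B or C of ski2-2 dcl2-1 ended the first call, at adjusted p up to 0.174, and library C or D of either genotype ended the second, at up to 0.138. HAM1 had 0.922, 11.9, 6.74 and 11.5 units in ski2-2 dcl2-1 and 2.84, 4.74, 11.2 and 14.5 in ein5-1 dcl2-1, and the libraries of the 2 genotypes overlapped.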

How the data were processed

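The authors deposited 1 table with, per gene and genotype, the mean signal of 22-nt reads over libraries, called TPM per the file headers, though its columns add up to between 142140 and 1906264. Its log2 fold changes and p-values come from DESeq2, per the submitters' processing notes, which also name Bowtie 1.2.2, SAMtools 1.9 and TAIR10. How reads at several genes or strands were counted is not given in the sources used here.

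Library values were recovered from the means: each mean is a sum of whole reads, each worth a step particular to its library (0.330 to 4.74 units). Between 98.5 and 99.9% of genes per genotype were recovered, up to 53.4 to 699.9 units, within 0.6 of the last printed digit, giving 21962 to 321803 reads per library. A floor of 3 reads was taken per library, for counting error only. No pair of libraries was alike to within sampling noise. The chi-square per gene between pairs was 2.31 to 2.84 in ein5-1 dcl4-2 ago1-27, which held the highest, and 1.81 to 1.98 in ski2-2 dcl4-2 ago1-27. With ago1-45 it was 1.2 to 1.35 in ein5-1 dcl4-2 and 1.21 to 1.26 in ski2-2 dcl4-2. Recovery and limma were tested on simulated data.

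limma 3.58.1 in R 4.3.3 (intensity trend) was fitted to log2(units + 1), for genes whose mean reached 1 unit and that were recovered in all groups compared; a fold on this scale understates the change of low genes. The tests use genotypes outside the rule only. The planned settings were pseudocount 0.1, no minimum mean, quantile normalization, scaling to 178 microRNA loci and each library left out. Sequences and coordinates are from RefSeq TAIR10.1; sites were scanned without gaps on the mRNA strand.

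The loci and lists were chosen with earlier results of these data known. Named are the 20 loci highest in ski2-2 dcl4-2, listed genes, up to 5 loci of largest difference per comparison of SKI2 with EIN5 loss, and threshold neighbours; TOC159, SYD, P5CS1, AT1G29370, AT3G22142, GRP9, RAB18, AT4G06531 and further values were chosen after values were seen. Trans-acting siRNA loci were not analysed here.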

Additional observations from a re-analysis of the deposited data

Results flagged for a closer look

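At 4 loci the signed difference of ago1-45 minus ago1-27 depended on which decay factor was lost by limma's interaction, the value with SKI2 lost minus that with EIN5 lost: 1.68 at AT5G32511, 1.63 at AT5G32107, 1.35 at TOC159 and 1.02 at GUN5 on the log2 scale. At AT5G32511 the difference between the alleles was 0.55 with SKI2 lost and -1.13 with EIN5 lost, and at AT5G32107 it was 0.56 and -1.06, so that these 2 went opposite ways. AT5G32511 and AT5G32107 share repeat sequence and are not independent. One library of ein5-1 dcl4-2 ago1-45 stood apart for SPL2, with 16.7 units against 10.8 to 11.6 in the other 3; it is 1 of 68 groups of 4 libraries examined, of which chance would single out about 1 in 20.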

How the results depend on the processing

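No paired analysis was possible because the recovered libraries carry no replicate number. With microRNA loci as the scale, the median of all genes moved to -0.86 from -0.62 in ski2-2 against ein5-1 with ago1-27, and 17 loci (3 higher, 14 lower) were called in place of 11. On that scale the median moved to -0.93 from -0.23 in ski2-2 dcl4-2 ago1-27 against dcl2-1, with 22 calls (3 and 19) in place of 5, and to -0.34 from 0.30 in ein5-1 dcl4-2 ago1-27 against dcl2-1, with 18 (4 and 14) in place of 9. It gave 7 interactions in place of 4, and between the alleles 21 higher and 0 lower with SKI2 lost (median 0.80) and 11 and 0 with EIN5 lost (median 0.36). It reversed HAM1 (0.49) and AT4G08050 (0.0735) between the alleles with SKI2 lost, and GUN5 (-0.18) in ein5-1 dcl4-2 ago1-27 against dcl2-1; the cause was not tested. Quantile normalization gave 14 higher and 3 lower for ski2-2 against ein5-1 with ago1-45, 5 and 4 with ago1-27, 14 and 1 between the alleles with SKI2 lost, 9 and 6 with EIN5 lost, and 20 and 0 for ski2-2 dcl4-2 ago1-45 against dcl2-1. HAM1, HAM2 and ARF10 kept their higher calls for ski2-2 against ein5-1 in every setting tried.

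The 2 calls between ski2-2 dcl2-1 and ein5-1 dcl2-1 became 1 with pseudocount 0.1, 1 with no minimum mean, 0 with quantile normalization and 4 with microRNA loci as the scale. Leaving out 1 library at a time gave 0 to 1 calls there, 3 to 7 interactions (7 without library D of ein5-1 dcl4-2 ago1-27), 14 to 19 and 8 to 15 calls for ski2-2 against ein5-1 with ago1-45 and ago1-27, 14 to 19 and 10 to 16 between the alleles with SKI2 and EIN5 lost, 15 to 19 and 4 to 6 for the ski2-2 plants against dcl2-1, 27 to 31 and 6 to 9 for the ein5-1 plants, and 0 in both comparisons without any called locus. The number of loci, 43, became 91 and 19 with a fold of 4 or 16 over the controls, 20 and 57 with a limit of 2 or 8 on ein5-1 dcl4-2, and 53 and 34 with a minimum of 10 or 50 units. Loci above the recovery limit, and most library values of ski2-2 dcl4-2, stayed outside the tests.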
